A study of Mus musculus with 23 samples.

Results

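Membrane trafficking genes were followed in the prefrontal cortex of mice after injection of mammary tumour cells, through 6 gene families named by their symbols on the array: Rab, Arf, Stx, Vamp, Vps and Sec, each followed by a digit. The rule took 80 genes with 84 oligos (array probes, each with its own accession) of 8737 named genes with 9008 oligos. Of these, 39 genes were Rab, 3 Arf, 10 Stx, 3 Vamp, 16 Vps and 9 Sec. The symbol rule also took Rab11fip1, an effector that binds Rab11, Rab5if, which is not a Rab protein, and Rab10os, a transcript from the strand opposite Rab10.

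Female Balb/c mice aged 8 weeks were injected under the skin. The tumour group received 100000 cells of the murine mammary carcinoma line 4T-1, suspended in 100 µl of PBS (phosphate-buffered saline), and the control group 100 µl of PBS alone. Tissue was taken at 18, 72 or 192 h, and RNA of tumour-bearing and PBS mice was hybridised together on 2-colour oligonucleotide arrays printed in-house. The 14 arrays made from total RNA, of 23 arrays in all, gave 7 replicates, with 3 at 18 h on 6 arrays and 2 each at 72 and 192 h on 4 arrays per time. Each replicate was hybridised on 2 arrays, with tumour RNA in Cy5 on one and in Cy3 on the other. The labels do not say if RNA of several mice was pooled for a replicate, so the p-values speak of the spread among these samples, part of which may be technical. The tissue held all cell types of the prefrontal cortex, and fewer cells of a type and less RNA per cell cannot be told apart in it.

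Rab and Arf proteins are small GTPases that mark membranes and, when bound to GTP, recruit coats, motors and tethers to them. Syntaxins (Stx) and vesicle-associated membrane proteins (Vamp) are SNAREs, which pair across a vesicle and its target membrane to drive fusion. Many Vps proteins form the tethering and sorting complexes of endosomes and lysosomes, and Sec proteins include the coat and the translocon of the early secretory pathway. In cortical neurons these proteins serve transmitter release, receptor recycling and the clearance of endosomes along axons and dendrites.

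Of the 84 oligos, 69 had enough values to be tested at 1 or more times, and 15 were never tested. None of those tested passed at any time, in limma fitted over all oligos with Benjamini-Hochberg adjustment (adjusted p under 0.05). The log2 ratios of tumour over PBS of the tested members ran from -0.59 to 0.13 at 18 h, from -0.32 to 0.39 at 72 h and from -0.20 to 0.37 at 192 h, where 1 stands for a 2-fold difference. Among the 15 members tested at all 3 times, Rab7, the GTPase of late endosomes and lysosomes, had the smallest p in the test between times. Its replicates were all below 0 at 18 and 72 h and all above 0 at 192 h, but the difference between times did not pass the adjusted test either. With single arrays as observations, 59 members entered the test between times, and Stx8 had a smaller p than Rab7. In that fit, too, 0 members passed adjustment. Tumour over PBS is the likely direction of the ratios and not a settled one, since no file header says which dye was read in channel A. On the 7 arrays where tumour RNA carried Cy5, the authors' deposited log ratios ran with B over A (r across spots 0.435 to 0.760). They ran with A over B on the other 7 (r with B over A of -0.769 to -0.323), so channel B was read as Cy5. This reading takes the authors' log ratios to be tumour over PBS. Were they PBS over tumour, every sign given here would be reversed.

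The arrays of a swap often disagreed. Over the members, r between both arrays of a replicate was 0.13, 0.04 and 0.04 for replicates 4, 5 and 6 at 18 h. It was -0.42 and 0.32 for replicates 3 and 4 at 72 h, and -0.60 and 0.28 for replicates 3 and 4 at 192 h. Over all oligos the same r ran from -0.60 to 0.16. In replicate 3 at 192 h 8 of 39 members had the same sign on both arrays, beside 25.5% of all oligos, and in replicate 4 at 192 h 39 of 71, beside 53.3%. That replicate 3 was also the only one on a separate printing of 2 arrays, and the printing block explained 39.0% and 60.9% of the variance of the log2 ratio among spots of its arrays. On the larger printing that share was 38.9% on the Cy5 array of replicate 4 at 72 h, 25.1% on that of replicate 4 at 192 h and 5.33% to 16.2% on the other 10 arrays. Across different arrays with the same dye orientation, r over all oligos ran from -0.074 to 0.49. Between the means of replicates of 1 time it ran from -0.12 to 0.089, with a median of 0.026. Between replicates of different times it ran from -0.24 to 0.072, with a median of -0.021. Over the members, the median r was 0.035 between replicates of 1 time and -0.14 between replicates of different times. Brightness of the same oligos on both printings correlated with Spearman rho 0.438 over 66 members and 0.617 over 5743 oligos. Of the neuronal markers, 4 of 7 genes were usable on 11 or more arrays, as were 2 of 2 astrocyte, 2 of 3 oligodendrocyte and 2 of 4 microglial markers. No oligo of the marker lists passed the adjusted test at any time. At an unadjusted p under 0.05 at 72 h were 2 of 2 endothelium and pericyte oligos tested, at -0.53 and -0.37, beside 2.71% of all oligos. Of 4 inhibitory neuron oligos tested at 192 h, 1 was under 0.05, at 0.59, beside 3.34% of all oligos. The lowest of those 4 stood at -0.13. Of 2 neuronal oligos tested at 18 h, Snap25 was under 0.05, at -0.43, beside 6.15% of all oligos. The other stood at 0.05. The part of these cell types in the members' values was not tested.

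**Figure D1:**
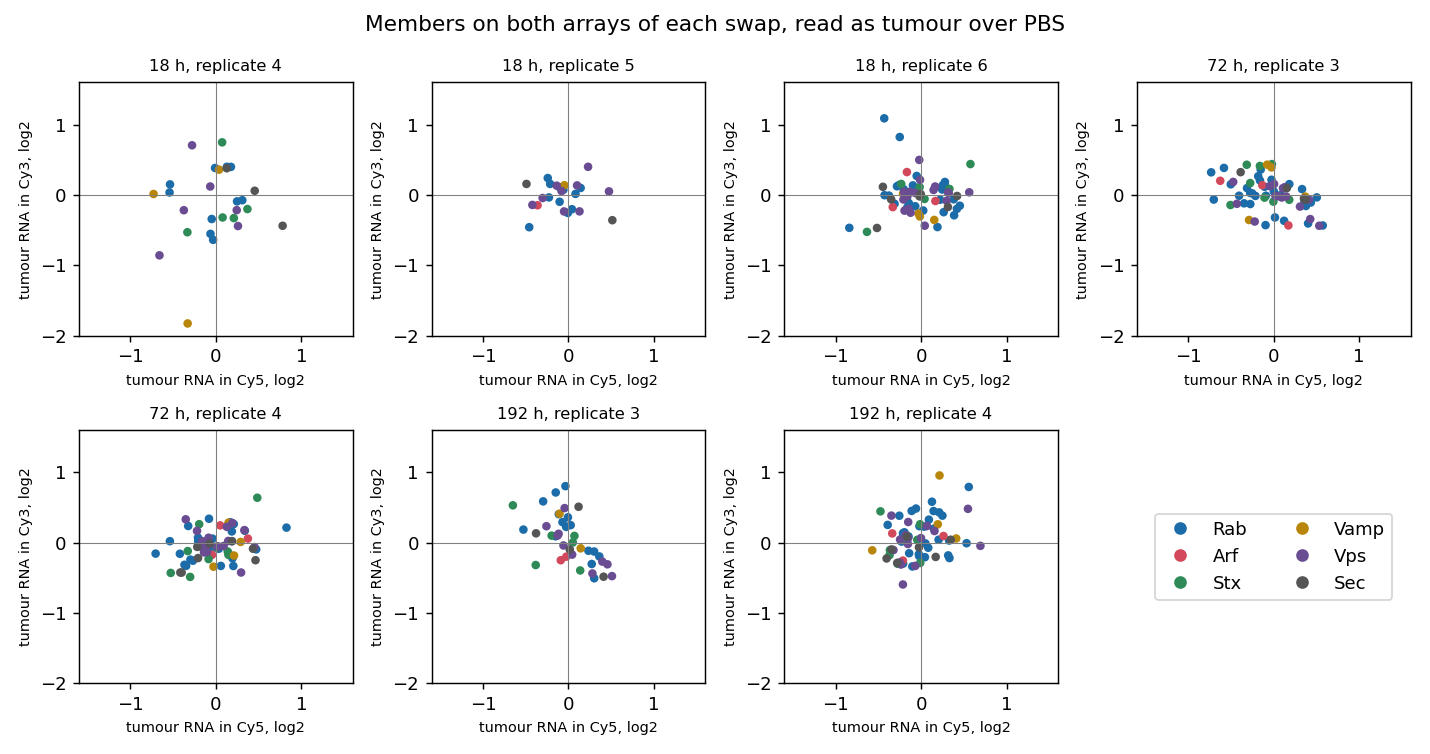
Each panel plots the members' log2 ratio of tumour over PBS with tumour RNA in Cy5 (x axis) against the ratio with tumour RNA in Cy3 (y axis), 1 point per oligo, coloured by family. Points of a swap that agrees lie along a line rising to the right; in replicate 3 at 72 h and replicate 3 at 192 h the points fall to the right instead, with r of -0.42 and -0.60.

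The members were on the whole brighter and more often usable than the array at large. Brightness depends on the oligo, its spot and the array, so it says how well a member was measured and not which transcript was more abundant. For some oligos it varied widely between arrays, from percentile 3.56 to 93.9 for Rab12 and 2.31 to 98.0 for Rab3a. For Rab2a it ran from 82.5 to 99.9. A spot was usable when both channels carried the scanner's flag C and were above 0 and at least 0.9 of its pixels were unsaturated. Of the 84 member oligos, 48 (57.1%) had a value on 11 or more arrays, beside 37.3% of all 9008. Their median brightness stood at percentile 60.0 of the usable spots of an array, beside 44.2 for all oligos. The shares on 11 or more arrays were 17 of 39 for Rab, 3 of 3 for Arf, 5 of 10 for Stx, 4 of 4 for Vamp, 13 of 19 for Vps and 6 of 9 for Sec. Rab14, Rab10 and Vps51 were usable on all 14 arrays. Rab2a, which works between the endoplasmic reticulum (ER) and the Golgi, was the brightest member at percentile 98.9, followed by Vps28 at 95.3. Sec24d, a cargo-binding subunit of the COPII coat, was usable on 4 arrays at percentile 13.4 and never on both arrays of a swap.

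**Figure D2:**
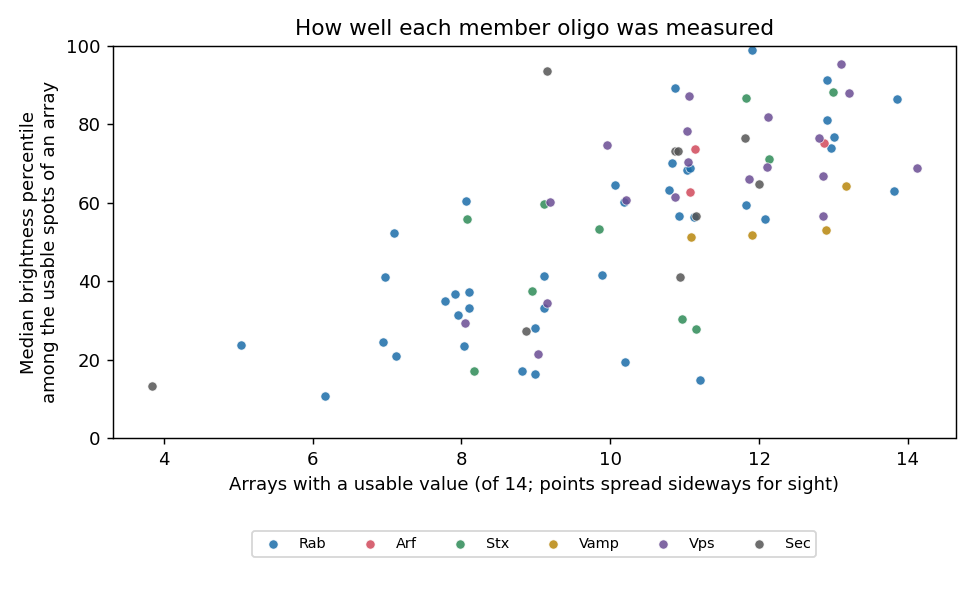
Each point is a member oligo, placed by the number of the 14 arrays on which it had a usable value (x axis) and its median brightness percentile among the usable spots of an array (y axis), and coloured by family. Oligos on few arrays are mostly dim, from Sec24d on 4 arrays at percentile 13.4 up to Rab14 on 14 arrays at percentile 86.4.

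A member entered the test at a time when at least 2 replicates were complete there, with both arrays usable. That left 35 of 84 oligos at 18 h, 52 at 72 h and 35 at 192 h, and 69 oligos of 67 genes at 1 or more times. The 13 genes that were never tested were Rab17, Rab23, Rab24, Rab33b, Rab37, Rab3a, Rab3b, Rab43, Rab6a, Sec24d, Stx11, Stx19 and Vps13b. Rab3a, the main Rab of synaptic vesicles, was among them because its oligo was usable on 9 arrays but on both arrays of only 1 replicate at each time. Its log2 ratio was 0.12 in replicate 4 at 18 h, 0.0051 in replicate 3 at 72 h and -0.03 in replicate 3 at 192 h.

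At 18 h, 0 of 35 members passed the adjusted test, as did 0% of the 3366 oligos tested. At an unadjusted p under 0.05 stood 2 members, Rab2b and 1 oligo of Vamp5, beside 6.15% of all oligos. At 72 h, 0 of 52 members and 0% of 4214 oligos passed, and the unadjusted count was 2 members, Stx4a and Rab7, beside 2.71% of all oligos. At 192 h, 0 of 35 members and 0% of 2755 oligos passed, and 1 member, Rab7, was under 0.05 unadjusted, beside 3.34% of all oligos. The 2 other limma fits, with arrays as observations and with trend and robust settings, also gave 0 members at an adjusted p under 0.05. The median member stood at -0.06 at 18 h, -0.02 at 72 h and -0.01 at 192 h, beside -0.01, -0.02 and 0.02 for all oligos. Above 0 were 13 of 35 members at 18 h, 23 of 52 at 72 h and 16 of 35 at 192 h, beside 47.7%, 45.6% and 55.3% of all oligos. The 95% interval of a member's log2 ratio reached a median of 0.31 at 18 h, 0.32 at 72 h and 0.32 at 192 h to either side. It lay inside -1 to 1 for 34 of 35 members at 18 h, beside 99% of all oligos. At 72 h it did so for 52 of 52 members, beside 99.7%, and at 192 h for 35 of 35, beside 99.6%. In the main fit, a 2-fold difference was thus outside the interval of each member tested except for 1 at 18 h, the Vamp5 oligo AF119384. Smaller differences were within the intervals. This bound depends on the processing, since with normexp background correction the mean of Stx4a at 72 h was itself 1.00.

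**Figure D3:**
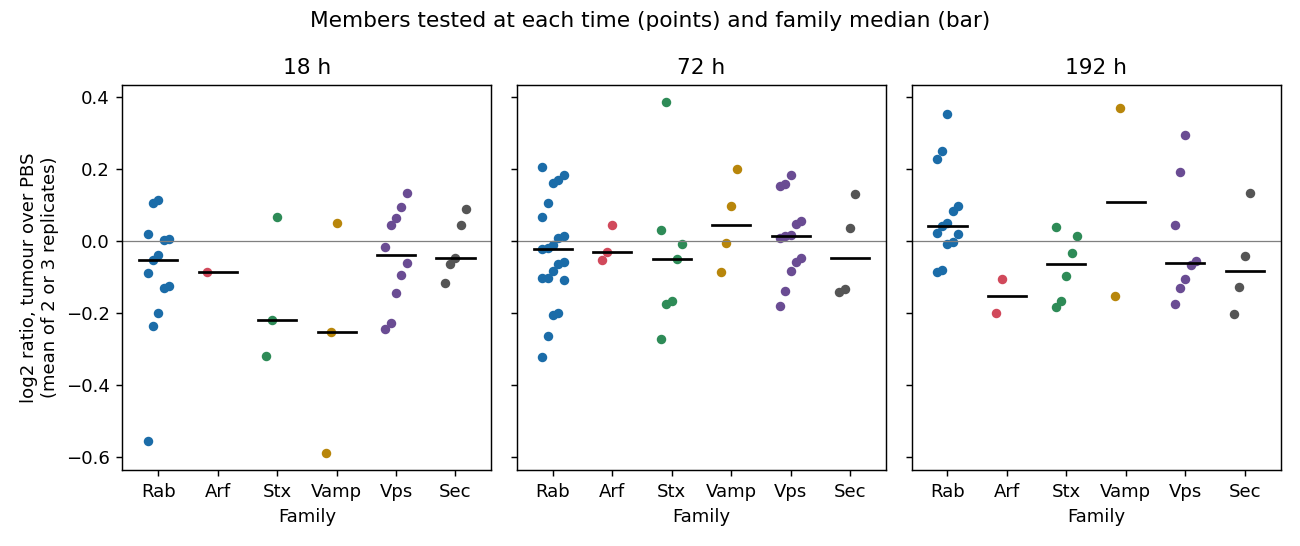
Points are the members tested at each time, by family (x axis), at their mean log2 ratio of tumour over PBS (y axis, mean of 2 or 3 replicates), with a bar at the family's median. Family medians lie between -0.25 and 0.11, and the lowest points are the Vamp5 oligo AF119384 (-0.59) and Rab2b (-0.56) at 18 h.

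By family, the Rab genes had medians of -0.05 at 18 h (13 tested), -0.02 at 72 h (21 tested) and 0.04 at 192 h (13 tested). Rab genes above 0 numbered 5 of 13 at 18 h, 8 of 21 at 72 h and 9 of 13 at 192 h. Of all oligos, 47.7%, 45.6% and 55.3% were above 0 at these times. The 13 at 192 h include Rab10os at 0.02 and Rab5if at -0.0038, which are not Rab proteins. The Vps oligos had medians of -0.04, 0.01 and -0.06 in the same order of times, over 10, 13 and 8 tested. The syntaxins stood at -0.22 over 3 genes at 18 h, -0.05 over 7 at 72 h and -0.07 over 6 at 192 h. Vamp oligos ranged from a median of -0.25 over 3 at 18 h to 0.05 over 4 at 72 h and 0.11 over 2 at 192 h. Arf genes were at -0.09 (1 tested), -0.03 (3 tested) and -0.15 (2 tested), and Sec genes at -0.05 (5 tested), -0.05 (4 tested) and -0.08 (4 tested). These are descriptions of few genes, and no family had a member past the adjusted test.

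**Figure D4:**
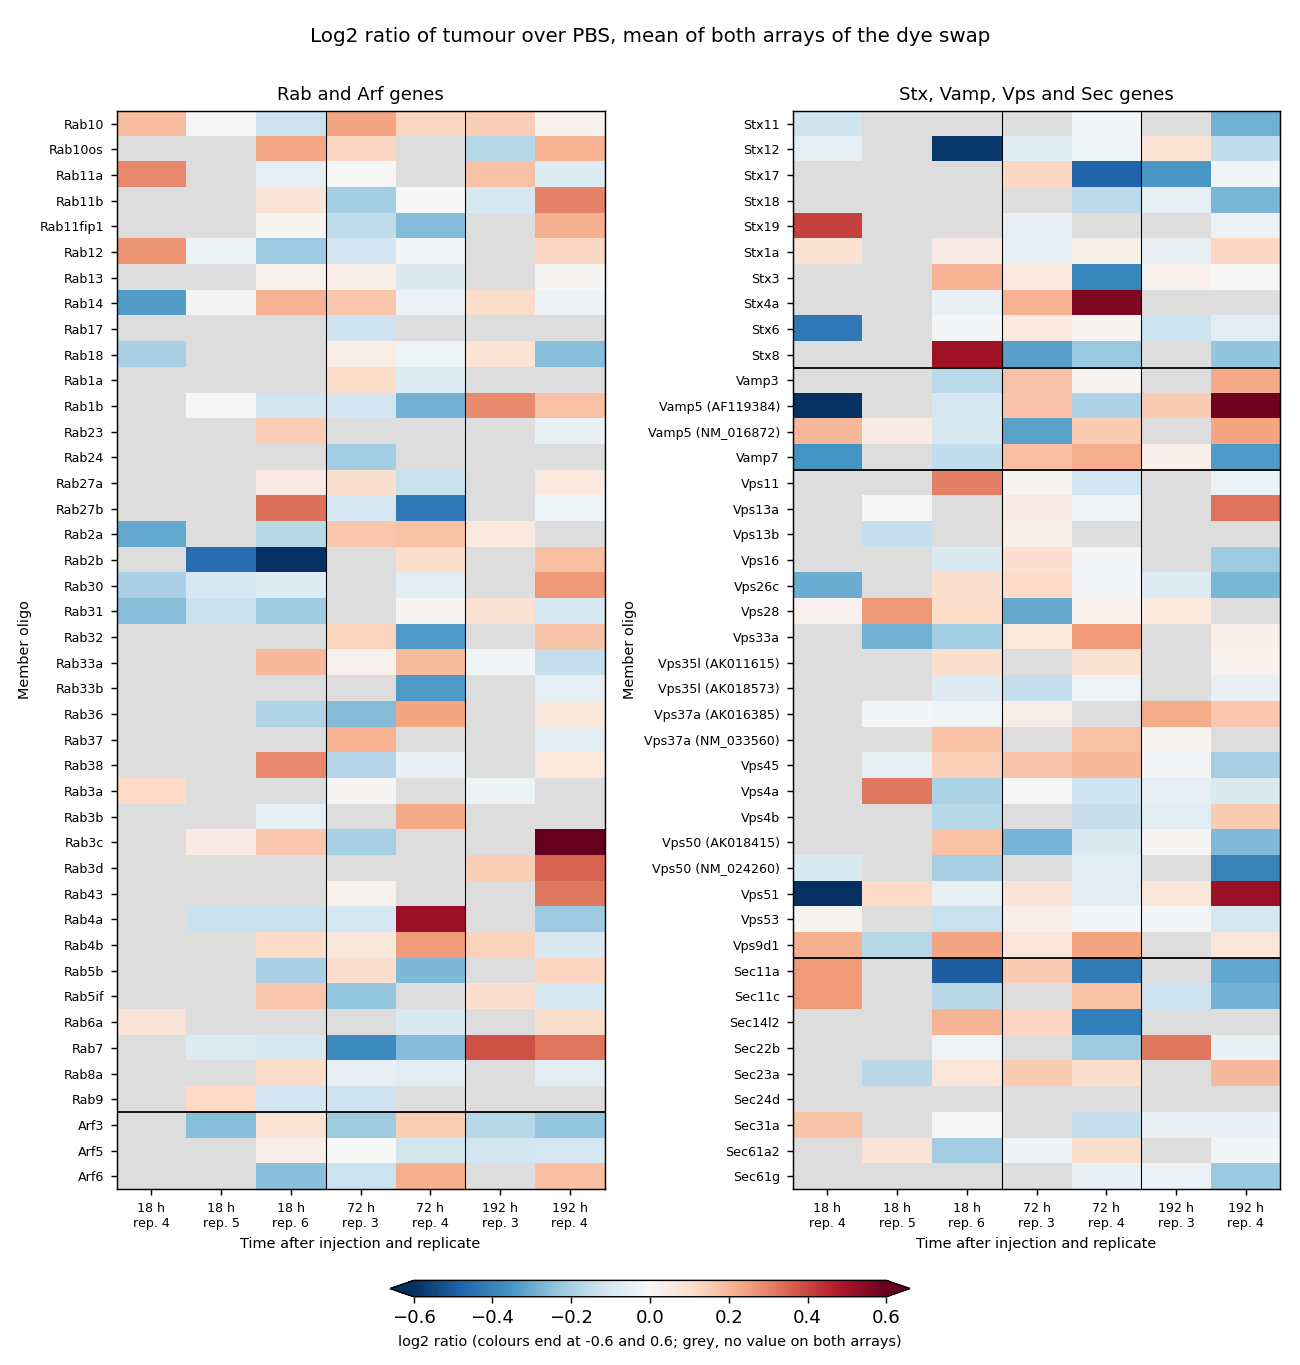
Rows are the 84 member oligos, grouped by family, and columns the 7 replicates by time; colour gives the log2 ratio of tumour over PBS averaged over both arrays of the swap, red above 0 and blue below, and grey marks a replicate without a value on both arrays. Rab7 is blue at 18 and 72 h and red in both replicates at 192 h, while most rows carry both colours within a time or are incomplete.

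Among the Rabs of the early secretory pathway, 4 of 11 were tested at 18 h and all 4 had a mean below 0, with a median of -0.18. Of all oligos, 47.7% were above 0 at 18 h. The 4 are only those with at least 2 complete replicates. With arrays as observations, Rab43, Rab33a, Rab33b and Rab6a were above 0 at 18 h, at 0.26, 0.20, 0.09 and 0.07. Rab18, Rab1a and Rab36 were below 0 in that fit, at -0.30, -0.07 and -0.03. Rab2b had log2 ratios of -0.46 and -0.65 in replicates 5 and 6 at 18 h. It had 0.10 in replicate 4 at 72 h and 0.18 in replicate 4 at 192 h. Both 18 h values were thus below the single values of the later times. On single arrays at 18 h, Rab2b read -0.46 and -0.46 in replicate 5 and -0.84 and -0.47 in replicate 6, but 0.27 on the only usable array of replicate 4. Its mean at 18 h was -0.56 ± 0.15 (SE, n = 2 replicates), with an adjusted p of 0.755. With 1 array of a swap allowed as a replicate the mean was -0.28. Rab2b was dim on both arrays with tumour RNA in Cy3 behind this mean, at brightness percentiles of 12.6 in replicate 5 and 7.51 in replicate 6. Its close relative Rab2a, the brightest member, had -0.31 and -0.17 in replicates 4 and 6 at 18 h, 0.16 and 0.17 in replicates 3 and 4 at 72 h, and 0.06 in replicate 3 at 192 h. Both complete replicates of Rab2a were thus below 0 at 18 h and both above 0 at 72 h. Of all oligos with both times tested, 9.34% had replicates of opposite signs at these times. In replicate 3 at 72 h, the array of Rab2a with tumour RNA in Cy3 read -0.11 while the Cy5 array read 0.43.

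Rab1b, which acts in transport out of the ER, had 0.0026 and -0.11 in replicates 5 and 6 at 18 h. It had -0.11 and -0.29 in replicates 3 and 4 at 72 h and 0.28 and 0.17 in replicates 3 and 4 at 192 h. Both replicates were below 0 at 72 h and above 0 at 192 h. Of all oligos with both times tested, 12.3% had replicates of opposite signs at these times. In replicate 3 at 192 h, however, the array with tumour RNA in Cy5 read -0.15 and that with tumour RNA in Cy3 read 0.71. On Cy5 arrays alone the mean of Rab1b at 192 h was 0.00058, and on Cy3 arrays alone 0.46. The mean of Rab1b was -0.20 ± 0.14 at 72 h (SE, n = 2, adjusted p 0.998) and 0.23 ± 0.14 at 192 h (SE, n = 2, adjusted p 1.00). The difference, 192 h minus 72 h, was 0.43 with a 95% interval of 0.0067 to 0.85 and a limma adjusted p of 0.985.

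Rab7 directs fusion and transport of late endosomes, lysosomes and autophagosomes. It was well measured, on 13 arrays at a median brightness percentile of 91.4. Its log2 ratio was -0.08 and -0.10 in replicates 5 and 6 at 18 h, -0.38 and -0.26 in replicates 3 and 4 at 72 h, and 0.38 and 0.32 in replicates 3 and 4 at 192 h. The values at 192 h were above 0 and those at both earlier times below 0. Of all oligos with both times tested, 12.3% had replicates of opposite signs at 192 and 72 h, and 11.2% at 192 and 18 h. In replicate 4 at 192 h, Rab7 had an intensity, divided by 1000 and before normalization, of 3556 in tumour RNA and 2049 in PBS RNA with tumour RNA in Cy5. With the dyes exchanged it had 3101 in tumour RNA and 3858 in PBS RNA. After loess both arrays of that replicate gave tumour over PBS above 0, at 0.21 and 0.43. In replicate 3 at 192 h the array with tumour RNA in Cy5 read -0.04 and the other 0.80, and in replicate 3 at 72 h the arrays read -0.70 and -0.07. Means were -0.09 ± 0.14 at 18 h, -0.32 ± 0.14 at 72 h and 0.35 ± 0.14 at 192 h (SE, n = 2 each), with adjusted p of 0.972, 0.998 and 1.00.

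The difference in Rab7 between 192 and 72 h was 0.68 ± 0.20 (SE), with a 95% interval of 0.26 to 1.09 and an adjusted p of 0.985 over the 1223 oligos tested at all 3 times. Between 192 and 18 h it was 0.44 (0.03 to 0.86, adjusted p 0.689). The F test for any difference between times gave an adjusted p of 0.949 for Rab7. Of the 15 members tested at all 3 times, 2 (Rab7 and a Vamp5 oligo) were under an unadjusted 0.05 in this F test, beside 4.01% of all oligos, and 0 passed after adjustment, as did 0% of all oligos. With only replicate 4 kept at 72 and at 192 h, Rab7 read -0.26 and 0.32. On Cy5 arrays alone it read -0.48 at 72 h and 0.09 at 192 h, and on Cy3 arrays alone -0.16 and 0.62, so the sign at each time was the same in both dye orientations and the size was not. Loess within blocks gave -0.09 at 72 h and 0.21 at 192 h.

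**Figure D5:**
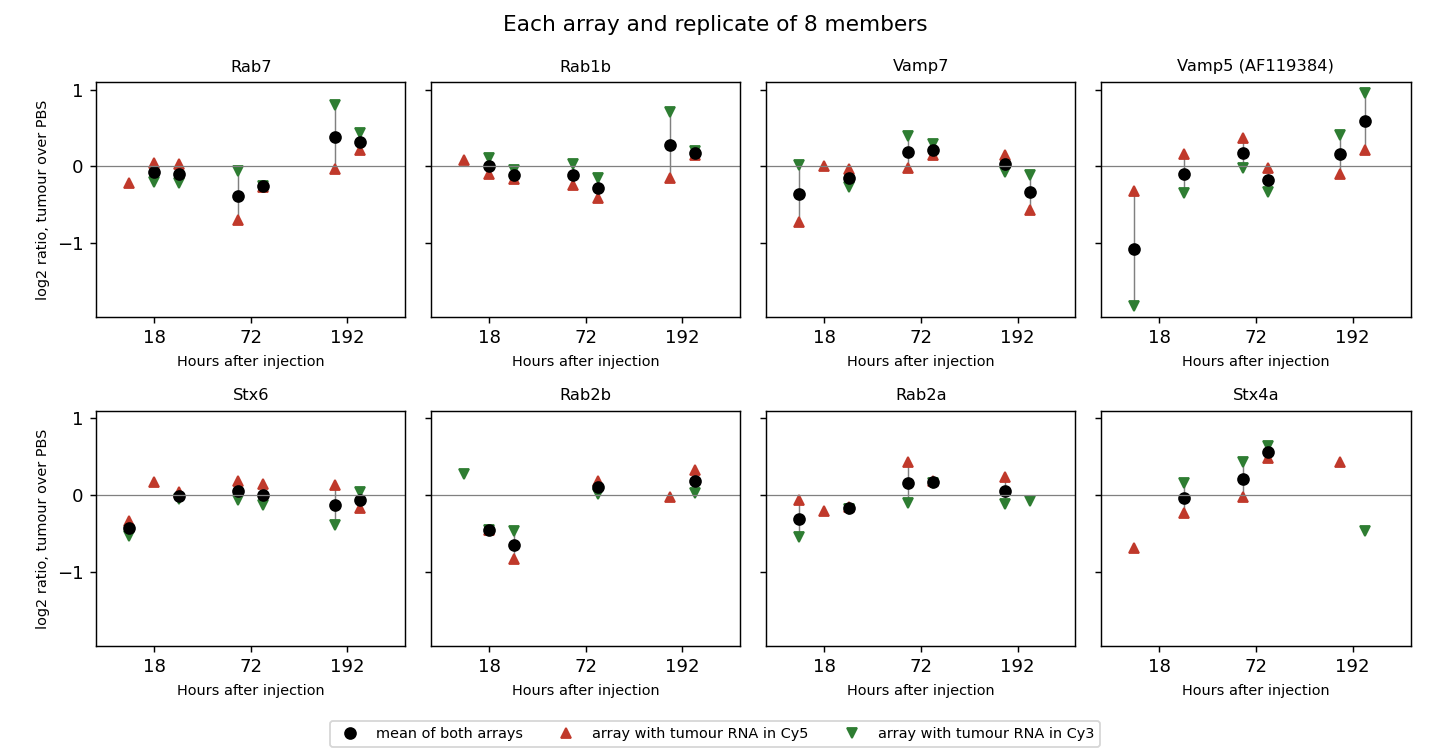
For 8 members the log2 ratio of tumour over PBS (y axis) is drawn by hours after injection (x axis, spaced evenly), with a dot for each replicate's mean and triangles for its array with tumour RNA in Cy5 (up) and in Cy3 (down). Rab7 and Rab1b lie above 0 in both replicates at 192 h, the Vamp5 oligo AF119384 reaches -1.08 in replicate 4 at 18 h, and the arrays of one swap can lie over 1 log2 unit apart.

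Replicates of 1 sign at 192 h and of the opposite sign at 72 h occurred in 5 of 23 members with both times tested (Rab1b, Rab33a, Rab7, Stx6 and Vps45), beside 12.3% of all oligos. Between 192 and 18 h they occurred in 4 of 20 members, beside 11.2%, and between 72 and 18 h in 4 of 25, beside 9.34%. The contrasts gave 0 members past adjustment in each case, as did 0% of all oligos. At an unadjusted p under 0.05 were Rab7 and Rab1b for 192 minus 72 h (2 of 15, beside 2.45%). For 192 minus 18 h they were Rab7, a Vamp5 oligo and Vps51 (3 of 15, beside 7.11%), and for 72 minus 18 h Vamp7 (1 of 15, beside 3.92%).

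Among the Rabs of early and recycling endosomes, Rab14, which moves cargo between endosomes and the Golgi, was measured on all 14 arrays. Rab14 had -0.33, 0.0071 and 0.21 in replicates 4, 5 and 6 at 18 h, 0.17 and -0.04 in replicates 3 and 4 at 72 h, and 0.11 and -0.03 in replicates 3 and 4 at 192 h. These replicates stood on both sides of 0 at every time, and the average over the times was 0.02 ± 0.08 (SE, n = 7, adjusted p 0.996), with a 95% interval of -0.15 to 0.20. Rab31, of the trans-Golgi network and endosomes, had -0.25, -0.13 and -0.22 in replicates 4, 5 and 6 at 18 h, all below 0, with a mean of -0.20 ± 0.11 (SE, n = 3, adjusted p 0.832). With tumour RNA in Cy5 the same replicates of Rab31 read -0.54, -0.23 and -0.43, and with tumour RNA in Cy3 they read 0.03, -0.04 and -0.0040. The mean was -0.40 on the Cy5 arrays alone and -0.0014 on the Cy3 arrays alone. At 192 h its replicates 3 and 4 were at 0.09 and -0.11. Rab11a, the Rab of the recycling endosome, had 0.29 and -0.06 in replicates 4 and 6 at 18 h, with a mean of 0.11 ± 0.15 (SE, n = 2, adjusted p 0.970).

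Rab10, which carries vesicles to the cell surface, had the highest average over the times among the 15 members tested at all 3 times, at 0.09 ± 0.08 (SE, n = 7, adjusted p 0.996). In the fit with arrays as observations, which takes in more members, others stood higher, with Vps9d1 at 0.15. For Rab10, replicates 4, 5 and 6 at 18 h were at 0.19, -0.00083 and -0.13. Those at 72 h (3 and 4) were at 0.23 and 0.13, and those at 192 h (3 and 4) at 0.15 and 0.02. The Rab10 replicates were above 0 at 72 and 192 h and mixed at 18 h. On Cy5 arrays alone the average of Rab10 turned to -0.01. For the average over the times, 0 of 15 members passed adjustment, as did 0% of all oligos, and 0 were under an unadjusted 0.05, beside 2.04% of all oligos.

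The 7 Rabs of regulated secretion had median brightness percentiles from 10.8 (Rab37) to 63.2 (Rab3c). Rab3c, of synaptic vesicle exocytosis, had 0.05 and 0.16 in replicates 5 and 6 at 18 h (mean 0.11 ± 0.15, SE, n = 2, adjusted p 0.971), -0.20 in replicate 3 at 72 h and 0.68 in replicate 4 at 192 h. The last is the highest replicate value of any member, but it is the only complete replicate at its time, so Rab3c did not enter the test on replicate means there. Replicate 3 at 192 h had 1 usable array, at 0.15. In the fit with arrays as observations Rab3c had 0.53 ± 0.15 at 192 h (SE, adjusted p 0.999). Rab3d, best known from secretory granules, had 0.15 and 0.35 in replicates 3 and 4 at 192 h, with a mean of 0.25 ± 0.15 (SE, n = 2, adjusted p 1.00). On the Cy5 arrays alone the mean of Rab3d was 0.0073 and on the Cy3 arrays alone 0.49. Rab27b, which docks secretory vesicles, had -0.10 and -0.43 in replicates 3 and 4 at 72 h, a mean of -0.26 ± 0.15 (SE, n = 2, adjusted p 0.998). Both of these oligos also differed with the dye. In the fit with arrays as observations, the dye term, coded 1 for tumour RNA in Cy5 and -1 for tumour RNA in Cy3, was -0.38 for Rab27b and -0.24 for Rab3d, and -0.37 for Rab38. With that term, 0 of 83 members and 0.568% of 8633 oligos passed adjustment, and those 3 members were under an unadjusted 0.05, beside 11.5% of all oligos. On Cy3 arrays alone Rab27b at 72 h read 0.11, the opposite sign.

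Arf3 recruits coats to Golgi membranes. It had -0.25 and 0.08 in replicates 5 and 6 at 18 h, -0.21 and 0.15 in replicates 3 and 4 at 72 h, and -0.17 and -0.23 in replicates 3 and 4 at 192 h. Only at 192 h did both replicates lie on one side of 0, with a mean of -0.20 ± 0.15 (SE, n = 2, adjusted p 1.00). Its average over the times was -0.11 ± 0.09 (SE, n = 6, adjusted p 0.996). Arf5 had -0.11 and -0.10 in replicates 3 and 4 at 192 h. Arf6, of the plasma membrane and recycling, had -0.13 and 0.22 in replicates 3 and 4 at 72 h and 0.18 in replicate 4 at 192 h.

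Among syntaxins of the plasma membrane, Stx4a had the highest mean of any member at 72 h. Its log2 ratio was 0.21 and 0.56 in replicates 3 and 4 at 72 h and -0.04 in replicate 6 at 18 h, and it had no value on both arrays of a swap at 192 h. On the 4 arrays at 72 h, Stx4a read -0.02 and 0.44 in replicate 3 and 0.49 and 0.64 in replicate 4. The mean was 0.39 ± 0.16 (SE, n = 2, adjusted p 0.998). The spots were dim at replicate 4, with brightness percentiles of 11.2 and 11.8. Without replicate 4 at 72 h the value was 0.21, and with normexp background correction the mean was 1.00. Stx1a, the syntaxin of synaptic vesicle fusion, stood at a brightness percentile of 86.8 and had replicate values from -0.05 to 0.13. Its average was 0.03 ± 0.08 (SE, n = 6, adjusted p 0.996), with an interval of -0.14 to 0.20.

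Syntaxins of internal membranes had means below 0 in 2 of 2 tested at 18 h, 3 of 4 at 72 h and 4 of 4 at 192 h. Of all oligos, 47.7%, 45.6% and 55.3% were above 0 at these times. The count at 18 h covers only genes with at least 2 complete replicates. With arrays as observations, Stx8, Stx18 and Stx17 stood at 0.48, 0.49 and 0.01 at 18 h, and Stx12 and Stx6 at -0.32 and -0.16. Stx12, of recycling endosomes, had -0.06 and -0.58 in replicates 4 and 6 at 18 h, -0.07 and -0.03 in replicates 3 and 4 at 72 h, and 0.08 and -0.15 in replicates 3 and 4 at 192 h. A single replicate at 18 h carried its mean of -0.32 ± 0.16 (SE, n = 2, adjusted p 0.818). Stx6, of the trans-Golgi network, had -0.43 and -0.0080 in replicates 4 and 6 at 18 h, 0.06 and 0.0068 in replicates 3 and 4 at 72 h, and -0.13 and -0.07 in replicates 3 and 4 at 192 h. Stx8, of late endosomes, had 0.51 in replicate 6 at 18 h, -0.32 and -0.22 in replicates 3 and 4 at 72 h, and -0.23 in replicate 4 at 192 h. Its mean at 72 h was -0.27 ± 0.15 (SE, n = 2, adjusted p 0.998). Stx18, of retrograde transport to the ER, had -0.06 and -0.27 in replicates 3 and 4 at 192 h, a mean of -0.17 ± 0.15 (SE, n = 2, adjusted p 1.00).

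Of the Vamp genes, Vamp5 was printed as 2 oligos, and they did not give the same account. Oligo AF119384 had -1.08 and -0.10 in replicates 4 and 6 at 18 h, 0.17 and -0.18 in replicates 3 and 4 at 72 h, and 0.15 and 0.59 in replicates 3 and 4 at 192 h. Oligo NM_016872 had 0.20, 0.04 and -0.10 in replicates 4, 5 and 6 at 18 h, -0.32 and 0.15 in replicates 3 and 4 at 72 h, and 0.24 in replicate 4 at 192 h. In replicate 4 at 18 h they lay on opposite sides of 0, and in replicate 4 at 192 h both were above it. The mean of AF119384 at 18 h was -0.59 ± 0.20 (SE, n = 2, adjusted p 0.755) and that of NM_016872 was 0.05 ± 0.13 (SE, n = 3, adjusted p 0.987). In replicate 4 at 18 h, AF119384 read -1.83 on the array with tumour RNA in Cy3 and -0.33 on that with tumour RNA in Cy5. At 192 h, AF119384 had a mean of 0.37 ± 0.20 (SE, n = 2, adjusted p 1.00). Its difference between 192 and 18 h was 0.96 (95% interval 0.35 to 1.56, adjusted p 0.684).

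Vamp7, a SNARE of late endosomes that also acts in the growth of neurites, had -0.36 and -0.15 in replicates 4 and 6 at 18 h. It had 0.18 and 0.22 in replicates 3 and 4 at 72 h and 0.03 and -0.34 in replicates 3 and 4 at 192 h. Both values were below 0 at 18 h and above 0 at 72 h. Of all oligos with both times tested, 9.34% had replicates of opposite signs at these times. The mean of Vamp7 at 72 h lay above that at 18 h by 0.45 (95% interval 0.0059 to 0.90, limma adjusted p 0.908). Vamp3, of recycling endosomes, had 0.18 and 0.02 in replicates 3 and 4 at 72 h.

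Among the Vps genes, Vps28, a subunit of the ESCRT-I sorting complex, had 0.03, 0.26 and 0.11 in replicates 4, 5 and 6 at 18 h, all above 0, with a mean of 0.13 ± 0.12 (SE, n = 3, adjusted p 0.918). At 72 h it had -0.30 and 0.02 in replicates 3 and 4. Median centring in place of loess turned the 18 h mean to -0.08. Vps9d1, named for a domain that activates Rab5 in other proteins, had 0.21, -0.17 and 0.24 in replicates 4, 5 and 6 at 18 h (mean 0.09 ± 0.12, SE, n = 3, adjusted p 0.970). Vps45, which guides syntaxins on endosomes, had 0.17 and 0.20 in replicates 3 and 4 at 72 h and -0.01 and -0.20 in replicates 3 and 4 at 192 h. Its mean was 0.18 ± 0.14 at 72 h (SE, n = 2, adjusted p 0.998).

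Vps51, of the GARP and EARP tethers, was usable on all 14 arrays. It had -0.76, 0.12 and -0.04 in replicates 4, 5 and 6 at 18 h, 0.08 and -0.06 in replicates 3 and 4 at 72 h, and 0.07 and 0.51 in replicates 3 and 4 at 192 h. Single replicates, 4 at 18 h and 4 at 192 h, stood apart from the rest. The difference between 192 and 18 h was 0.52 (95% interval 0.01 to 1.03, adjusted p 0.692). Vps26c, a subunit of retriever, had -0.08 and -0.27 in replicates 3 and 4 at 192 h, a mean of -0.18 ± 0.15 (SE, n = 2, adjusted p 1.00). Vps genes with 2 oligos could all be compared in replicate 6 at 18 h. There the oligos of Vps50 read 0.18 and -0.20, those of Vps35l 0.10 and -0.08 and those of Vps37a 0.18 and -0.02, with opposite signs in each pair. In replicate 4 at 192 h the oligos of Vps50, of the EARP tether, read -0.27 and -0.40.

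Sec11c, a catalytic subunit of the signal peptidase, was the best measured Sec gene, on 12 arrays. It had 0.25 and -0.17 in replicates 4 and 6 at 18 h, 0.17 in replicate 4 at 72 h, and -0.12 and -0.28 in replicates 3 and 4 at 192 h. Both values at 192 h were below 0, with a mean of -0.20 ± 0.15 (SE, n = 2, adjusted p 1.00). Its relative Sec11a had 0.26 and -0.49 in replicates 4 and 6 at 18 h and 0.15 and -0.42 in replicates 3 and 4 at 72 h, with replicates on opposite sides of 0. Of the COPII coat, Sec23a had 0.15 and 0.11 in replicates 3 and 4 at 72 h, and Sec31a had -0.04 and -0.04 in replicates 3 and 4 at 192 h.

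Other trafficking genes, in a list of 119 genes with 125 oligos (coats, adaptors, SNARE partners, Rab and Arf regulators, sorting nexins and tethers), also gave no call after adjustment. Above 0 were 19 of 59 oligos tested at 18 h, 41 of 68 at 72 h and 25 of 52 at 192 h, beside 47.7%, 45.6% and 55.3% of all oligos. Their medians were -0.04, 0.03 and -0.01 in that order of times. Under an unadjusted 0.05 were 2 of 59, 2 of 68 and 3 of 52 oligos, beside 6.15%, 2.71% and 3.34% of all oligos. Clathrin and adaptor genes were below 0 in 11 of 12 tested at 18 h, with a median of -0.18, and above 0 in 1 of 12 there, in 9 of 14 at 72 h and in 8 of 12 at 192 h, to be read against the same shares of all oligos. The adaptor subunit Ap3d1 read -0.79, -0.15 and -0.23 in replicates 4, 5 and 6 at 18 h (adjusted p 0.755). Snap25, the SNARE partner of Stx1a at the synapse, read -0.80, -0.40 and -0.10 in the same replicates, with a mean of -0.43 ± 0.14 (SE, n = 3, adjusted p 0.755). Both were lowest in replicate 4, the replicate in which Vps51, Stx6 and the Vamp5 oligo AF119384 were also at their lowest at 18 h. Other members, among them Rab11a, Rab12, Sec11a and Sec11c, were at their highest at 18 h in that replicate. Its log2 ratios also spread more over all oligos, with a standard deviation of 0.35 beside 0.21 and 0.22 in replicates 5 and 6. That replicate's part in these means was not tested beyond leaving it out.

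At 72 h, Napg, which helps to take SNARE complexes apart, read 0.08 and 1.41 in replicates 3 and 4 (adjusted p 0.998), and Cplx1, a complexin of the synapse, read 0.04 and 0.96 in the same replicates (adjusted p 0.998). Replicate 4 alone carried both. At 192 h, Psd3, an activator of Arf6, read 0.16 and 0.88 in replicates 3 and 4, and Tbc1d8, a protein with a Rab-inactivating domain, read 0.34 and 0.37 (adjusted p 1.00 each). The lowest of the list by the test at 72 h were Chmp4c at -0.29 and Vti1a at -0.28, and at 192 h Rabep2 at -0.28 and Snx1 at -0.23. The remaining named genes at 18 h were Madd at 0.32 and Tbc1d1 at 0.22. Madd read -0.11, 0.13 and 0.95 in replicates 4, 5 and 6, and Tbc1d1 0.31 and 0.13 in replicates 4 and 6.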

How the data were processed

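Per the file headers, the deposited scanner tables give an integrated intensity per spot in channels A and B, with local background subtracted, in 3 scans per array of 10080 spots in 48 blocks, and the fraction of unsaturated pixels. The authors also deposited a log ratio per spot, whose base is not stated and was read as log2. The sources used here name no image program. Spots were named through the platform annotation. Log2 ratios were loess-corrected per scan (span 0.3), averaged over scans, turned to tumour over PBS, averaged per oligo and then over both arrays of a swap. The 7 replicate values entered limma 3.58.1 (R 4.3.3) with 1 coefficient per time and a shared spread, adjusted over all oligos tested. Intervals cover this spread only, and the number of arrays limits precision. Per replicate, 2309 to 6703 oligos had a value. The fit was tested on simulated data with the real pattern of missing values, the same spread for all oligos and no effect of printing block. That test does not cover the block effects or the disagreement within swaps seen here.

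Members and lists were chosen with earlier results of these data known. Named genes are those of smallest p, 4 in each direction at each time, 3 in each direction for the average, 3 for the F test, the best measured of each family, genes with several oligos, and 2 in each direction of the other trafficking genes at each time. Arf5, Arf6, Rab2a, Rab3a, Sec11a, Sec23a, Sec31a and Vamp3 were added after their values were seen. Alternatives changed normalization, background, filters, the model and the replicates. The replicate numbers 3 and 4 shared by 72 and 192 h did not show pairing: the difference between replicates 4 and 3 correlated between the times with r 0.0035 over 1926 oligos. The arrays from poly A RNA were not used here.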

Additional observations from a re-analysis of the deposited data

Results flagged for a closer look

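Among member oligos tested at both times compared, 11 had every replicate with a value on one side of 0 at one time and on the opposite side at the other. Oligos with a single complete replicate at one of the times, such as Rab2b and Stx8, were not counted. For 6 of them, which were tested at all 3 times, the difference between the times was tested with the limma contrast, and none passed adjustment. Of all oligos with both times tested, the shares with such opposite replicates were 9.34% for 72 and 18 h, 11.2% for 192 and 18 h and 12.3% for 192 and 72 h.

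Rab7 differed by 0.68 between 192 and 72 h (adjusted p 0.985) and by 0.44 between 192 and 18 h (adjusted p 0.689). Rab1b differed by 0.43 between 192 and 72 h (adjusted p 0.985). The Vamp5 oligo AF119384 differed by 0.96 between 192 and 18 h (adjusted p 0.684), and replicate 4 at 18 h alone stood at -1.08. Vamp7 differed by 0.45 between 72 and 18 h (adjusted p 0.908). Vps45 differed by -0.29 between 192 and 72 h (adjusted p 0.985). Stx6 differed by 0.25 between 72 and 18 h (adjusted p 0.908) and by -0.13 between 192 and 72 h (adjusted p 0.985), and its values at 72 h were within 0.06 of 0.

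For the other 5 oligos, not tested at all 3 times, the difference between the times was not tested. Rab2a differed by 0.41 and Vps33a by 0.40 between 72 and 18 h. The Vps37a oligo AK016385 differed by 0.21 and Sec31a by -0.13 between 192 and 18 h. Rab33a differed by -0.19 between 192 and 72 h.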

How the results depend on the processing

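No alternative gave a member an adjusted p under 0.05 at any time. Of 524 alternative values of the 30 named results, 505 kept their direction and 19 reversed; the cause was not tested. Loess within blocks turned the average of Vps45 to -0.034. Median centring turned Vps28 at 18 h to -0.078, Vps9d1 at 18 h to -0.060 and the average of Stx1a to -0.012, and normexp turned the last to -0.0047. The authors' deposited log ratios turned Rab3c at 18 h to -0.025 and Rab27b at 72 h to 0.038, and 1 array per swap turned Rab3c at 18 h to -0.032. Arrays with tumour RNA in Cy5 alone, chosen as an alternative after seeing the data like those in Cy3 alone, turned Vps9d1 at 18 h to -0.20, Rab11a at 18 h to -0.012, Vps26c at 192 h to 0.023 and the averages of Rab10, Stx1a and Stx6 to -0.014, -0.054 and 0.034. Those with tumour RNA in Cy3 turned Vps45 and Rab27b at 72 h to -0.064 and 0.11, Stx18 at 192 h to 0.18 and the averages of Vps45 and Arf3 to -0.056 and 0.016.

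The members' median at 18 h was -0.061 as reported. It was -0.036 with loess within blocks, -0.020 with median centring, -0.11 with normexp, -0.095 with brighter spots only, -0.025 with the authors' log ratios, 0.014 with 1 array per swap, 0.015 with arrays as observations, -0.027 on Cy5 arrays alone and -0.031 on Cy3 arrays alone. At 72 h it was -0.057 with median centring and -0.053 with normexp, and at 192 h 0.042 with brighter spots only and 0.028 on Cy3 arrays alone. Leaving out each replicate in turn gave medians of -0.078 to 0.020 at 18 h, -0.026 to 0.025 at 72 h, -0.024 to 0.017 at 192 h and -0.051 to 0.016 for the average. With 1 replicate left at a time, it is assumed to vary like the others. The count under an unadjusted 0.05 at 18 h was 0 without replicate 6 and 1 without replicate 4, at 72 h 0 without replicate 4 and at 192 h 0 without replicate 4. With a replicate block for numbers 3 and 4, 0 of 23 members passed for 192 minus 72 h, and the difference of Rab7 was 0.68 (adjusted p 0.946). Missing usable values on one or both arrays of a swap limited the members tested to 35, 52 and 35 of 84.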
